A study of Sus scrofa with 4 samples.

Results

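The genes described are 9 genes of LIF and interleukin-6 family signalling: the ligands LIF, IL6, IL11 and CLCF1, the receptor genes LIFR, OSMR, IL6R and IL6ST, and the feedback inhibitor SOCS3. They were picked by symbol among the 35670 genes that the count files list, each symbol matched 1 gene, and all 9 passed the filter on low counts. The choice was made with the differences between these same libraries known, so their differences are given as values with their errors and without p-values. Where a gene is said to rise, fall or pass the threshold, this describes the values that led to its choice and is no independent support for them. RNA had been sequenced from porcine fetal fibroblasts (PFFs), cells of fetal pig skin that serve as nuclear donors in cloning. The labels give 2 libraries of genotype BRG1-overexpressed and 2 control libraries of genotype WT. BRG1, encoded by SMARCA4, is a catalytic subunit of SWI/SNF complexes, which move nucleosomes. Cells of both groups had been starved of serum, and the name pTK-642 stands in the title of all 4 samples without an explanation, so it is unknown whether the controls carried a vector. The age of the fetuses, the number of animals, and whether the libraries of a group came from separate cultures are not given in the sources used here; p-values therefore measure only the spread between these samples, which may be technical. According to the series' design text, the study asked how extra BRG1 changes the chromatin of donor cells and the development of cloned embryos.

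Cytokines of this family signal through a shared receptor chain, gp130, encoded by IL6ST. IL-6 first binds IL6R and interleukin-11 first binds IL11RA, whereas LIF joins gp130 to LIFR and oncostatin M joins it to OSMR. The assembled receptors activate JAK kinases and the transcription factor STAT3, which induces SOCS3, a protein that binds gp130 and the JAKs and damps the signal. Fibroblasts of the skin are a known source of several of these ligands, and in mouse embryonic stem cells LIF is known for maintaining pluripotency.

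Counts over genes summed to 36238580 and 34684837 in the libraries labelled BRG1 and to 38126860 and 34486400 in the controls. Levels below are in CPM, read counts relative to the size of the library after scaling by the trimmed mean of M-values (TMM). SMARCA4, the gene behind the label, had 159 and 163 CPM in the libraries labelled BRG1, against 154 and 179 CPM in the controls. The groups overlapped (log2 fold change -0.04 ± 0.11, SE), so reads assigned to this pig gene do not bear out the label. BRG1 from a construct of another sequence could be missed by such counts, which was not tested. SMARCA4 passed as lower without control 1 (-0.15) and with gene span corrected for, that is with the relation of counts to the length of genome a gene covers taken out of every library (-0.24). Its sign turned with library-size scaling, which leaves out the TMM step (0.18). Directions below are therefore those of the libraries labelled BRG1. Reads that fell in no annotated gene were 10.3% and 10.5% of the reads listed in the libraries labelled BRG1 and 6.11% and 7.34% in the controls. Of 9 fibroblast markers matched, 6 were higher and 0 lower at an adjusted p under 0.05, against 21.0% higher over all genes tested. COL3A1 (-0.21), PDGFRB (-0.22) and VIM (-0.27) had negative log2 fold changes and did not pass. The summed level was 47548 to 47910 CPM in the libraries labelled BRG1 and 26950 to 31412 CPM in the controls. It includes the matrix gene FN1, at means of 12366 CPM and 2770 CPM. These 4 markers are named after their values were seen. Of 10 leukocyte markers, another possible source of these cytokines, 8 stayed under 1 CPM in all 4 libraries and PTPRC, CD3D and LYZ were at 0 (summed level 3.65 to 5.05 CPM in the libraries labelled BRG1, against 1.69 to 3.55 CPM in the controls). Endothelial markers summed to 7.34 to 8.04 CPM in the libraries labelled BRG1 and 4.42 to 5.09 CPM in the controls, keratinocyte markers to 2.65 to 3.61 CPM in the libraries labelled BRG1 and 2.83 to 3.15 CPM in the controls. Melanocyte and Schwann cell markers summed to 0.080 to 0.36 CPM in the libraries labelled BRG1 and 0.94 to 1.50 CPM in the controls, skeletal muscle markers to 0.59 to 1.63 CPM in the libraries labelled BRG1 and 0.56 to 0.83 CPM in the controls. TEK, KRT5, KRT1, MYOD1 and PAX7 were at 0. The part of the fibroblast markers and of the reads in no gene in the results below was not tested. In RNA from bulk cultures, fewer cells of a type and less RNA per cell cannot be told apart.

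All 4 ligand genes fell in the libraries labelled BRG1, 3 of them more than 4-fold, while 3 of the 4 receptor genes rose by less than 2-fold. These sizes depend on the scaling. With library-size scaling the log2 fold changes were 1.10 for LIFR, 1.16 for IL6R and -1.99 for IL6. The shared chain IL6ST and the inhibitor SOCS3 did not pass the threshold of an adjusted p of 0.05. That makes 4 genes lower and 3 higher out of 9; over all 14617 genes tested 44.6% passed, 21.0% as higher and 23.6% as lower. The median log2 fold change was -0.16 over the 9 genes and 0.02 over all genes tested. The CPM of the groups did not overlap in any of the 9 genes, as in 73.2% of all genes tested. Because the 9 genes were chosen with these differences known, nothing is read from either count.

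**Figure D1:**
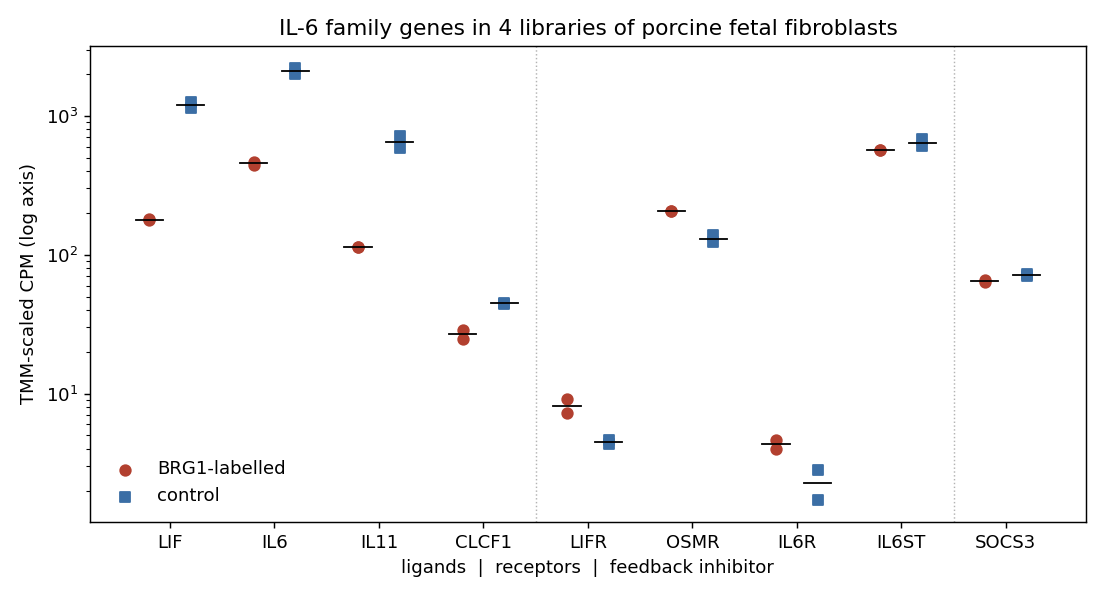
TMM-scaled CPM (log axis) of the 9 genes in each of the 4 libraries, with libraries labelled BRG1 as circles on the left and controls as squares on the right of each gene, and bars at the group means. LIF, IL6 and IL11 sit far lower in the libraries labelled BRG1, for LIF at 180 and 178 CPM against 1139 and 1257 CPM in the controls, while IL6ST and SOCS3 lie close together in all 4 libraries.

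LIF (ENSSSCG00000040961; chromosome 14, 47221540 to 47239513 in RefSeq's annotation of Sscrofa11.1, as for all positions here), leukemia inhibitory factor, was counted 7045 and 6657 times in libraries 1 and 2 labelled BRG1, against 39854 and 40347 times in controls 1 and 2. Its level was 180 and 178 CPM in the libraries labelled BRG1, against 1139 and 1257 CPM in the controls. Both libraries labelled BRG1 lay far below both controls, and the gap between the groups, 2.66 on the log2 scale, exceeded the difference between the controls, 0.14. The log2 fold change was -2.74 ± 0.11 (SE; 95% interval -2.99 to -2.50), a level 6.70-fold lower. Its fold change was lower than that of all but 0.51% of the genes tested. OSM, the gene of the related ligand oncostatin M, begins 3253 bases beyond the end of LIF on the same chromosome. It had 7 and 3 reads in the libraries labelled BRG1, against 18 and 18 in the controls, and did not pass (log2 fold change -2.02 ± 0.86, adjusted p = 0.0658, from edgeR's quasi-likelihood test after Benjamini-Hochberg adjustment, as every adjusted p here). OSM is named here although no rule picked it.

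IL6 (ENSSSCG00000020970; chromosome 9, 91506421 to 91510830), a cytokine of acute inflammation, had 17381 and 17435 reads in the libraries labelled BRG1, against 77908 and 64050 in the controls. This corresponded to 443 and 466 CPM in the libraries labelled BRG1, against 2226 and 1995 CPM in the controls. The libraries of each group lay close together and the groups far apart (log2 fold change -2.22 ± 0.12, 95% interval -2.47 to -1.96; 4.64-fold lower). IL11 (ENSSSCG00000040725; chromosome 6, 59540482 to 59544909), a cytokine known for its role in fibroblast activation, had 113 and 114 CPM in the libraries labelled BRG1, against 716 and 588 CPM in the controls. The controls differed more from each other for IL11 than for LIF or IL6, by 0.28 on the log2 scale, yet both stood above both libraries labelled BRG1 (log2 fold change -2.52 ± 0.12, 95% interval -2.78 to -2.27; 5.75-fold lower).

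CLCF1 (ENSSSCG00000012915; chromosome 2, 5142315 to 5152750) encodes a ligand that acts on the receptor of ciliary neurotrophic factor. It had 24.9 and 28.7 CPM in the libraries labelled BRG1, against 44.2 and 45.1 CPM in the controls, from 977 and 1074 reads in the libraries labelled BRG1 and 1548 and 1448 reads in the controls. The groups did not overlap, and the fall was the smallest of the 4 ligands (log2 fold change -0.74 ± 0.12, 95% interval -0.99 to -0.48; 1.67-fold lower). The intervals of LIF, IL6 and IL11 all lay below that of CLCF1. In RefSeq's annotation, CLCF1 shares 70 bases with a neighbouring protein-coding gene.

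Among the receptor genes, OSMR (ENSSSCG00000016851; chromosome 16, 24041312 to 24101842), which encodes the chain that pairs with gp130 to bind oncostatin M, had the most reads of those that rose. Its level was 208 and 207 CPM in the libraries labelled BRG1, against 124 and 138 CPM in the controls. The 2 libraries labelled BRG1 were almost equal and both were above the controls (log2 fold change 0.67 ± 0.10, 95% interval 0.45 to 0.88; 1.59-fold higher). In RefSeq's annotation, long noncoding genes overlap OSMR over 1607 bases at one end and 8023 bases at the other, and whether counting used the strand is unknown.

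LIFR (ENSSSCG00000016850), which encodes the second receptor chain for LIF, had 360 and 270 reads in the libraries labelled BRG1, against 162 and 139 in the controls. The level was 9.18 and 7.21 CPM in the libraries labelled BRG1, against 4.63 and 4.33 CPM in the controls. Both libraries labelled BRG1 were above both controls, with library 1 the higher (log2 fold change 0.87 ± 0.21, 95% interval 0.42 to 1.33; 1.83-fold higher). Without library 1 labelled BRG1 the value was 0.69 and LIFR no longer passed the threshold. IL6R (ENSSSCG00000027628; chromosome 4, 95322426 to 95381393), which encodes the chain that binds IL-6 itself, was counted least often of the 9 genes, with 182 and 150 reads in the libraries labelled BRG1, against 60 and 90 in the controls. Its 4.64 and 4.01 CPM in the libraries labelled BRG1 were above the 1.71 and 2.80 CPM of the controls. The controls were 0.71 apart on the log2 scale, more than the gap of 0.52 between the groups (log2 fold change 0.94 ± 0.31, 95% interval 0.28 to 1.60). IL6R did not pass at an adjusted p of 0.01, without library 1 labelled BRG1 (0.83) or without control 1 (0.62).

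IL6ST (ENSSSCG00000016916; chromosome 16, 35101304 to 35151832), the shared chain gp130, had 571 and 569 CPM in the libraries labelled BRG1, against 602 and 677 CPM in the controls. The log2 fold change was -0.16 ± 0.11 (95% interval -0.40 to 0.07). A long noncoding gene covers the whole of IL6ST in RefSeq's annotation, so reads of the pair may not be told apart. With library-size scaling the value was 0.06. With gene span corrected for it was -0.26 and passed, as it did without control 1 (-0.25) and without control 2 (-0.09), where the spread comes from the 2 libraries labelled BRG1 alone.

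SOCS3 (ENSSSCG00000036956; chromosome 12, 3643832 to 3647015), the STAT3-induced inhibitor of gp130 signalling, had 2587 and 2362 reads in the libraries labelled BRG1, against 2539 and 2261 in the controls. Its level was 66.0 and 63.1 CPM in the libraries labelled BRG1, against 72.5 and 70.4 CPM in the controls. The 4 values lay close together (log2 fold change -0.15 ± 0.10, 95% interval -0.36 to 0.07). The whole interval lay above those of the 4 ligands. The sign of the SOCS3 value turned with library-size scaling (0.08) and with gene span corrected for (0.19).

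**Figure D2:**
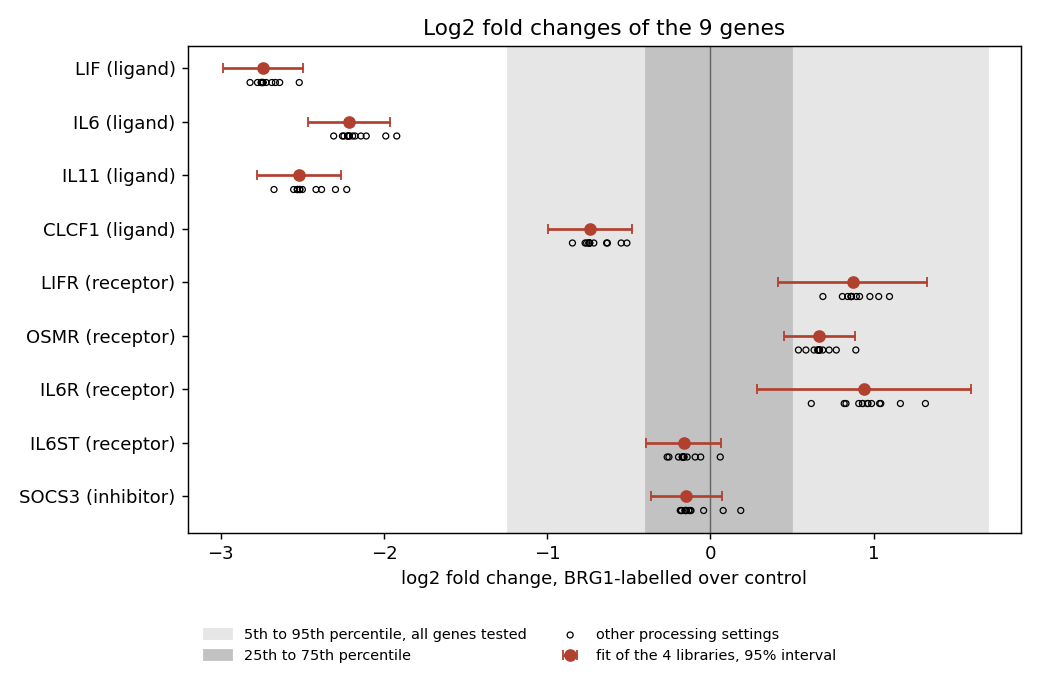
Log2 fold change of each gene, libraries labelled BRG1 over controls, with its 95% interval from the fit of the 4 libraries, and below it as small circles the values under 12 or 13 other processing settings. Shading marks the 5th to 95th and the 25th to 75th percentile of all genes tested; LIF, IL6 and IL11 lie left of the shading in every setting, and IL6ST and SOCS3 lie on both sides of 0.

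Ratios of reads within a library do not depend on how libraries are scaled to each other. They are not corrected for gene length, so only their differences between libraries can be read. Because the genes were chosen with their differences known, the ratios restate those differences and give no further support for them. Per read of IL6ST there were 0.315 and 0.312 reads of LIF in the libraries labelled BRG1, against 1.89 and 1.86 in the controls. For IL6 the ratio to IL6ST was 0.776 and 0.818 in the libraries labelled BRG1, against 3.70 and 2.95 in the controls. For IL11 it was 0.198 and 0.200 in the libraries labelled BRG1, against 1.19 and 0.869 in the controls. All 3 ligand ratios were lower in both libraries labelled BRG1 than in either control. The receptor OSMR, by contrast, gave 0.364 and 0.364 reads per read of IL6ST in the libraries labelled BRG1, against 0.206 and 0.203 in the controls. LIF per read of OSMR was 0.865 and 0.858 in the libraries labelled BRG1, against 9.19 and 9.13 in the controls, a ratio 10.6-fold lower. SOCS3 per read of IL6ST overlapped between the groups, at 0.115 and 0.111 in the libraries labelled BRG1 and 0.121 and 0.104 in the controls. SOCS3 per read of LIF was 0.367 and 0.355 in the libraries labelled BRG1, against 0.0637 and 0.0560 in the controls, a ratio 6.03-fold higher. The ligands also fell unequally: LIF per read of IL6 was 0.405 and 0.382 in the libraries labelled BRG1, against 0.512 and 0.630 in the controls.

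**Figure D3:**
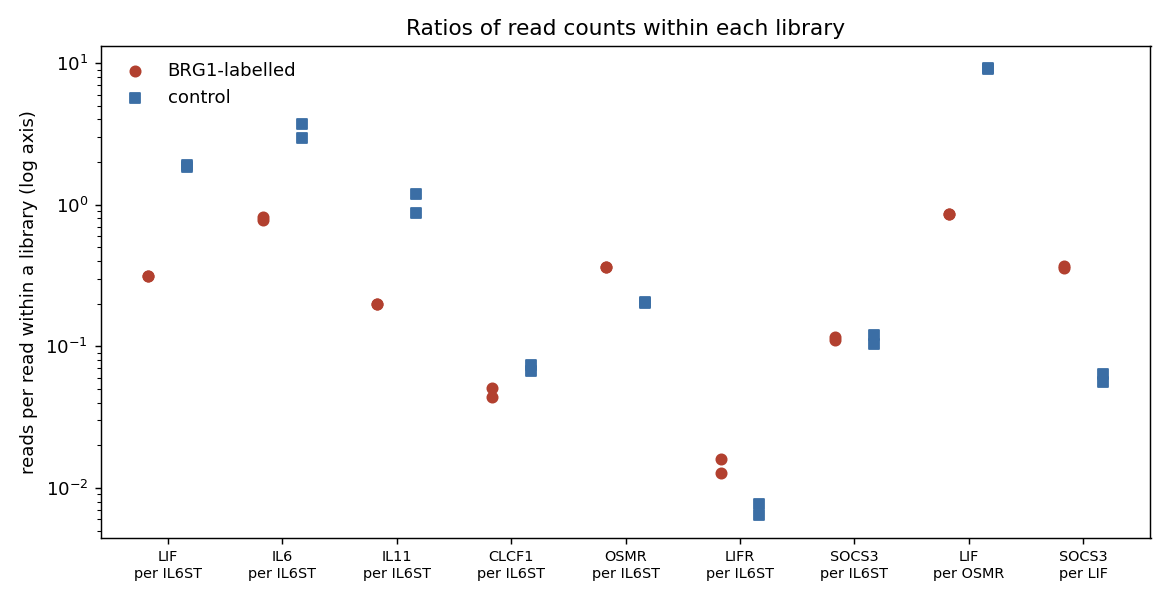
Reads of one gene per read of another within each library (log axis), with libraries labelled BRG1 as circles on the left and controls as squares on the right. Ligands per IL6ST are lower and OSMR and LIFR per IL6ST higher in the libraries labelled BRG1, and SOCS3 per IL6ST overlaps between the groups, at 0.115 and 0.111 in the libraries labelled BRG1 and 0.121 and 0.104 in the controls.

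Of 79 other genes of the pathway in 5 lists, 77 were matched and 75 tested, of which 15 rose and 28 fell (median log2 fold change -0.16). The shares over all genes tested were 21.0% higher and 23.6% lower. Because the lists were drawn up with earlier results of these data known, nothing is read from these counts or from those of each list. Library-size scaling moved the median of all genes by 0.23 on the log2 scale and upper quartile scaling by 0.11. Of the pathway genes, 23 rose with library-size scaling. Over all 14617 genes tested, 4820 rose with that scaling, against 3068 with TMM scaling. Beside the genes picked by rule in each list, most of those in groups of 5 or fewer are named too, chosen after their values were seen.

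Other ligands and receptors of the family moved in both directions: of 9 tested, 2 rose and 3 fell (median log2 fold change -0.68, against 0.02 over all genes tested). Among all genes tested, 21.0% rose and 23.6% fell. IL11RA, the receptor of IL-11, rose to 44.9 ± 3.95 CPM in the libraries labelled BRG1, against 16.2 ± 2.00 CPM in the controls (SD, n = 2 each; log2 fold change 1.47 ± 0.14, adjusted p = 6.91e-07). IL11 and its receptor thus moved in opposite directions. IL27 and EBI3, the chains of interleukin-27, were lower from few reads. IL27 had 1.52 ± 0.48 CPM in the libraries labelled BRG1, against 4.97 ± 1.78 CPM in the controls (log2 fold change -1.71 ± 0.34, adjusted p = 0.000938), and EBI3 had 0.57 ± 0.28 CPM in the libraries labelled BRG1, against 2.56 ± 0.01 CPM in the controls (-2.16 ± 0.48, adjusted p = 0.00188). IL27RA, a receptor chain that pairs with gp130, fell to 220 ± 2.01 CPM, against 391 ± 3.54 CPM in the controls (-0.83 ± 0.10, adjusted p = 1.04e-05). CTF1, the ligand cardiotrophin-1, did not pass, with 46 and 56 reads in the libraries labelled BRG1, against 104 and 36 in the controls (-0.62 ± 0.48); it was 0.24 without control 1, and -1.17 and past the threshold without control 2. The median of this list was -0.03 without control 1 and -1.14 without control 2.

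Of 12 kinases, STATs and adaptors, 3 rose and 4 fell (median 0.04, mean -0.15), against 21.0% and 23.6% over all genes tested. STAT3 itself, the main transcription factor downstream of gp130, rose to 449 ± 6.72 CPM in the libraries labelled BRG1, against 329 ± 23.1 CPM in the controls (0.45 ± 0.10, adjusted p = 0.00292). STAT5A, a STAT that also serves other cytokine receptors, fell to 37.3 ± 1.85 CPM in the libraries labelled BRG1, against 68.2 ± 0.0077 CPM in the controls (-0.87 ± 0.11, adjusted p = 1.06e-05). The kinases JAK1 (0.01 ± 0.10), JAK2 (0.10 ± 0.12) and TYK2 (0.06 ± 0.11) did not pass; JAK1 had 334 and 340 CPM in the libraries labelled BRG1, against 317 and 350 CPM in the controls, which overlap. With gene span corrected for, JAK1 passed as lower (-0.30). Adaptors of the ERK branch split: GAB1 rose (0.68 ± 0.12, adjusted p = 0.000235), as did the phosphatase PTPN11 (0.27 ± 0.10, adjusted p = 0.0387), whereas GRB2 (-0.71 ± 0.11, adjusted p = 7.69e-05) and GAB2 (-1.23 ± 0.18, adjusted p = 7.53e-05) fell. The number that rose was 1 without library 1 or without library 2 labelled BRG1, and 5 without control 2 or with library-size scaling. Over all 14617 genes tested, 4820 rose with library-size scaling. The median of the list turned negative without control 1 (-0.07), without library 2 labelled BRG1 (-0.01) and with gene span corrected for (-0.19).

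Among 14 inhibitors of JAK-STAT signalling, which exclude SOCS3, 4 rose, 1 fell and 9 did not pass (median 0.10). The shares over all genes tested were 21.0% higher and 23.6% lower. SOCS2, which acts mainly on growth hormone signalling, rose to 3.78 ± 0.33 CPM in the libraries labelled BRG1, against 0.74 ± 0.17 CPM in the controls, from 30 and 20 reads in the controls (2.34 ± 0.37, adjusted p = 0.000137). SOCS4 (0.73 ± 0.14, adjusted p = 0.000568), SOCS5 (0.48 ± 0.12, adjusted p = 0.00488) and the SUMO ligase PIAS2 (0.32 ± 0.13, adjusted p = 0.0488) rose as well. PIAS2 no longer passed at an adjusted p of 0.01, with DESeq2 or its size factors, or with no filter on low counts. PTPN2, a phosphatase of JAKs and STATs, was lower (-0.38 ± 0.11, adjusted p = 0.0133), a call lost with library-size or upper quartile scaling, at an adjusted p of 0.01, and without library 1 or library 2 labelled BRG1. SOCS5 no longer passed without library 2 labelled BRG1 or with gene span corrected for. PIAS3, an inhibitor of STAT3, did not pass (0.10 ± 0.11), but passed as higher with library-size scaling (0.33) and with gene span corrected for (0.27). Without library 2 labelled BRG1, 2 of these genes rose. With library-size scaling 7 rose and 0 fell, where 4820 of all 14617 genes tested rose and 2139 fell. With gene span corrected for 2 fell, where 2935 of 11328 genes fell.

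STAT3 target genes, a list drawn from general knowledge of the pathway, moved in both directions: of 28 tested, 15 fell, 4 rose and 9 did not pass (median -0.44). Over all genes tested, 23.6% fell and 21.0% rose. The list was drawn up with earlier results of these data known, so its counts give no independent support for a change in STAT3 output. With library-size scaling 12 of the targets fell and the median was -0.22, and with gene span corrected for 13 fell and it was -0.23. Over all genes in these fits, 2139 of 14617 and 2935 of 11328 fell. Without control 1 the median of the targets was -0.41 and without control 2 it was -0.43. Without library 1 labelled BRG1 it was -0.41, and without library 2 labelled BRG1 it was -0.44. HGF, hepatocyte growth factor, fell to 43.2 ± 3.42 CPM in the libraries labelled BRG1, against 140 ± 13.8 CPM in the controls (-1.69 ± 0.11, adjusted p = 2.31e-08). VEGFA, the angiogenic growth factor, fell to 430 ± 0.75 CPM, against 1313 ± 120 CPM in the controls (-1.61 ± 0.11, adjusted p = 4.18e-08). The chemokine CCL2 (-1.56 ± 0.11, adjusted p = 6.31e-08) and the transcription factor IRF1 (-1.53 ± 0.10, adjusted p = 3.01e-08) fell too. The 4 that rose were A2M, a protease inhibitor of plasma that is an acute phase gene in rat (10.7 ± 1.52 CPM in the libraries labelled BRG1, against 1.44 ± 0.21 CPM in the controls; 2.90 ± 0.24, adjusted p = 2.43e-07), CCND1, cyclin D1 (0.90 ± 0.13, adjusted p = 5.73e-05), FOS (0.88 ± 0.15, adjusted p = 0.000285) and IL4R (0.61 ± 0.11, adjusted p = 0.000279). CEBPD, an acute phase transcription factor and the most abundant by read count of those that did not pass, had 1392 and 1317 CPM in the libraries labelled BRG1, against 1772 and 1509 CPM in the controls (-0.28 ± 0.12). Its value was 0.14 with gene span corrected for, and it passed as lower with DESeq2, with no filter on low counts, and with either control left out. Without control 2, the mean log2 fold change of the targets was -0.28, against -0.32 with all 4 libraries.

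The messenger RNAs of IL6 and related cytokines are short-lived, and 12 factors that act on such messages, or that shed the receptors, were examined. Of these 12, 2 rose, 5 fell and 5 did not pass, against 21.0% higher and 23.6% lower over all genes tested. Their median was -0.05, or 0.17 under library-size and 0.05 under upper quartile scaling. Over all genes tested, 2139 fell under library-size and 2769 under upper quartile scaling, against 3444 under TMM scaling. ZC3H12A, the ribonuclease Regnase-1 that degrades IL6 mRNA, fell to 82.6 ± 1.92 CPM in the libraries labelled BRG1, against 324 ± 17.3 CPM in the controls (-1.97 ± 0.10, adjusted p = 2.94e-09). ARID5A, which protects IL6 mRNA from that ribonuclease, fell to 3.06 ± 0.10 CPM, against 12.1 ± 1.24 CPM in the controls (-1.98 ± 0.20, adjusted p = 1.61e-06). A degrader and a stabiliser of the same message were thus lower by nearly the same amount. ADAM17, the protease that sheds IL6R from human cells, fell by 0.58 ± 0.12 on the log2 scale (adjusted p = 0.000901), and the RNA-binding proteins ELAVL1 (-0.29 ± 0.10, adjusted p = 0.0251) and HNRNPD (-0.27 ± 0.10, adjusted p = 0.0417) were lower. ZFP36L2 (0.42 ± 0.11, adjusted p = 0.00645) and RC3H1, known as Roquin-1 (0.34 ± 0.13, adjusted p = 0.0395), both of which destabilise messages, rose. ZFP36L1, of the same family as ZFP36L2, did not pass (0.22 ± 0.11), but passed as higher with library-size scaling (0.44), upper quartile scaling (0.32), gene span corrected for (0.47) and with control 1 (0.12) or control 2 (0.30) left out. Without library 1 or without library 2 labelled BRG1, 0 of these genes rose and 3 fell; 3 also fell under library-size or upper quartile scaling.

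**Figure D4:**
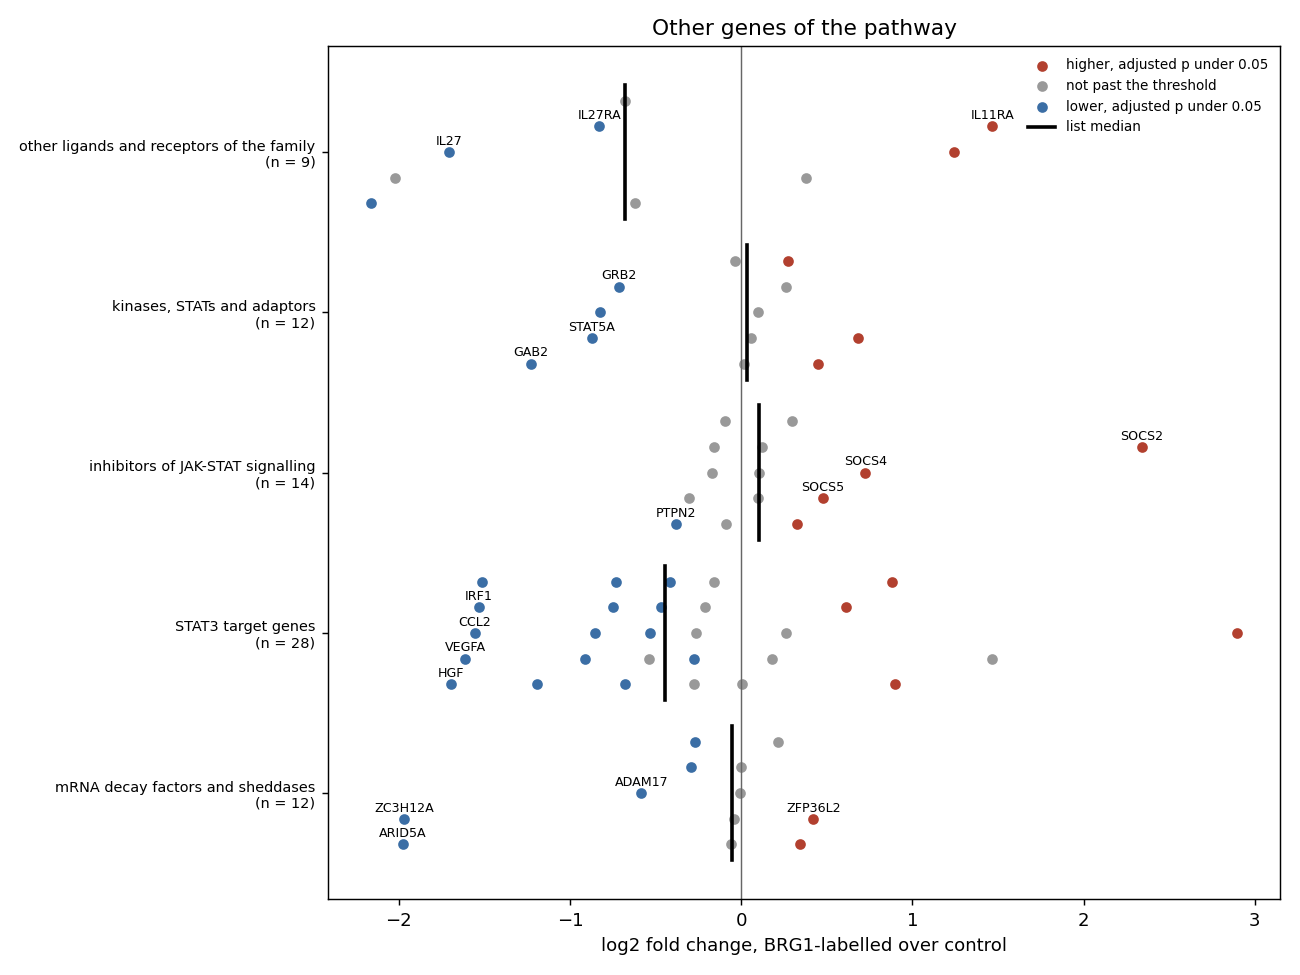
Log2 fold changes, libraries labelled BRG1 over controls, of the 75 other pathway genes tested, by list, with list medians as black bars and colours for genes past an adjusted p of 0.05. The lists were drawn up with earlier results of these data known. Each list has genes on both sides of 0. Among the 28 STAT3 targets 15 were lower and 4 higher, against 23.6% lower and 21.0% higher over all genes tested. With library-size scaling 12 of the targets were lower, beside 2139 of all 14617 genes tested.

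Genes with a pattern over the 4 libraries most like that of 4 of the genes were looked for among 9573 others with a symbol and a mean log2 CPM of at least 2, by the Euclidean distance between log2 CPM values centred on each gene's mean. With only 4 libraries in 2 groups, such a distance reflects mainly the size of the difference between groups. Nearest to LIF lay SERPINF2, the plasmin inhibitor (distance 0.090; 10.6 and 11.3 CPM in the libraries labelled BRG1, against 70.8 and 80.0 CPM in the controls), then the cytokine IL1A (0.26) and the epithelial transcription factor ELF3 (0.31). SERPINF2 alone lay within 0.1 of LIF. For IL6 the nearest genes were FABP3, a fatty acid binding protein (0.058), RASL10B (0.10) and GPR85 (0.10), and for LIFR they were VRK2, a kinase (0.078), GPAM, an enzyme of triglyceride synthesis (0.089), and PATZ1, a transcription factor (0.11). SOCS3 was not distinctive: 251 genes lay within 0.1 of it, led by CAND1 (0.0087), CDV3 (0.0087) and SLC30A5 (0.011).

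The 4 ligand genes span less of the genome than the receptor genes with a known span. The tested genes with a known span were ordered by it and cut into 5 groups of like size. The median log2 fold change was -0.32 in the group with the shortest spans (up to 9.33 kb), -0.17 in the next, and 0.24 in the group with the longest (from 91.8 kb). IL6 (4.41 kb), IL11 (4.43 kb) and SOCS3 (3.18 kb) belong to the shortest group and LIF (18.0 kb) and CLCF1 (10.4 kb) to the next. IL6ST (50.5 kb), IL6R (59.0 kb) and OSMR (60.5 kb) belong to the group from 41.3 kb to 91.8 kb, whose median was 0.10. A span for LIFR was not found by symbol. Genes of the same span group differed: SOCS3 had -0.15, beside -2.22 for IL6 and -2.52 for IL11. IL6ST had -0.16, beside 0.67 for OSMR and 0.94 for IL6R. With gene span corrected for in every library, the log2 fold changes were -2.67 for LIF, -1.92 for IL6, -2.23 for IL11, -0.55 for CLCF1, 0.54 for OSMR and 0.82 for IL6R. For SOCS3 the value was 0.19 and for IL6ST it was -0.26. The part of gene span in these differences was not tested beyond this correction.

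**Figure D5:**
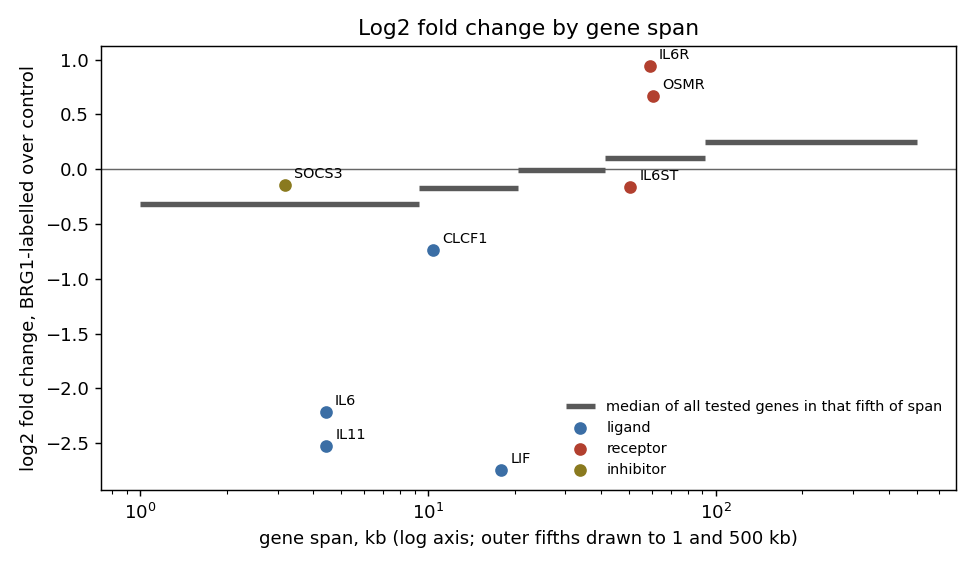
Log2 fold change, libraries labelled BRG1 over controls, against gene span in kb (log axis) for the 8 genes with a known span, with bars at the median of all tested genes in each of 5 groups by span. IL6 and IL11 lie far below the bar of their group, at -0.32, and SOCS3 lies above it.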

How the data were processed

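Each deposited file lists the whole-number count of reads for every Ensembl gene of a library; the counts were not normalized by the authors. The tools named in the submitters' processing notes are FastQC, STAR, SAMtools, Cufflinks, edgeR and DESeq2, and the build is Sscrofa11.1; the read counter, strand setting and annotation release are not given in the sources used here. RNA had been isolated by trizol, per the labels' protocols. Left out were rows with no gene: reads outside genes (6.11% to 10.5% of all listed), on more than 1 gene (1.90% to 2.33%) and with more than 1 alignment (1.42% to 1.80%). Symbols were in the files for 17508 of 35670 genes, and 223 more came from the gene name table.

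Groups and replicate numbers came from the titles. The filter filterByExpr (count of 10, total of 15) was followed by TMM scaling and a test with edgeR 4.0.16 in R 4.3.3 (quasi-likelihood F test, group as the only term). Benjamini-Hochberg adjustment covered all 14617 genes tested, with a threshold of 0.05; log2 fold changes carry a prior count of 0.125, and the SE is the unshrunk value divided by the square root of F. The script was tested on simulated counts in which few genes differed, equally often in each direction. Such a test cannot show whether the scaling holds in these data, where 44.6% of genes passed. Replicates differed by more than counting noise (chi-square per degree of freedom 5.33 in the libraries labelled BRG1 and 38.3 in the controls). The 9 genes and the lists were chosen with earlier results of these data known. Named genes are the 9, SMARCA4, in each list the 4 smallest adjusted p and the most abundant gene not past the threshold, and the 3 genes nearest in pattern to LIF, IL6, LIFR and SOCS3; 2 genes that this rule picks are counted but not reported here by name. Alternatives were other scalings and filters, DESeq2 1.42.0, limma-voom (limma 3.58.1), the replicate number as a block, a threshold of 0.01, a correction for gene span within libraries, and each library left out in turn. Gene spans and positions came from a RefSeq table of Sscrofa11.1 by symbol and were found for 77.5% of genes tested. Both the 2 libraries per group and, for genes with few reads, the depth limit the precision. No sequences are shown.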

Additional observations from a re-analysis of the deposited data

How the results depend on the processing

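The 9 genes were chosen with these differences known, so their values under other settings describe the processing and give no support to the differences. LIF ranged from -2.82 to -2.52 on the log2 scale, IL6 from -2.31 to -1.92, IL11 from -2.67 to -2.23, CLCF1 from -0.85 to -0.51 and OSMR from 0.54 to 0.89. LIFR lay between 0.69 and 1.03 with single libraries left out and was lost without library 1 labelled BRG1. IL6R lay between 0.62 and 1.32 and was lost at an adjusted p of 0.01 (0.94), without library 1 labelled BRG1 and without control 1. IL6ST was 0.060 with library-size scaling, -0.26 and past the threshold with gene span corrected for, and -0.25 to -0.093 with single libraries left out; SOCS3 was 0.078 with library-size scaling and 0.19 with gene span corrected for. Of the 9 genes, 1 to 3 rose and 4 to 5 fell with single libraries left out. The pathway genes that rose numbered 23 with library-size scaling and 9 to 20 with single libraries left out. Over all genes, 4820 rose and 2139 fell with library-size scaling, 1908 to 3673 rose and 2177 to 4321 fell with single libraries left out. Other values that turned sign were those of SMARCA4 (0.18 with library-size scaling, 0.061 with upper quartile scaling, -0.15 to 0.048 with libraries left out), CTF1 (-1.17 to 0.24 with libraries left out), JAK1 (-0.017 with no filter on low counts, -0.30 with gene span corrected for, -0.062 to 0.071 with libraries left out), CEBPD (0.14 with gene span corrected for), and CAND1 (0.073), CDV3 (0.077) and SLC30A5 (0.074) with library-size scaling. In each case the cause was not tested. Where a group is left with 1 library, that library is assumed to vary like the other group.

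The replicate numbers did not pair the samples (correlation of same-numbered deviations -0.04), and with the replicate block 3 of the 9 genes rose and 4 fell, against 3189 and 3505 over all genes. The span fit holds only the 11328 genes with a known span, so LIFR has no value in it.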
